A study of Mus musculus with 16 samples.

Results

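Messenger RNA for 8 surface proteins that set the survival and the T cell contacts of B cells was measured in single light zone (LZ) germinal center (GC) B cells. The genes are *Fas*, the 3 receptors of the BAFF and APRIL system (*Tnfrsf13c*, *Tnfrsf13b* and *Tnfrsf17*), *Tnfrsf14* and *Btla*, and the PD-1 ligand genes *Cd274* and *Pdcd1lg2*. They were chosen by symbol, and all 8 have 1 entry each among the 56691 genes of the count matrix. The hosts were male C57BL/6J or B6.SJL mice, 6 to 8 weeks old when primed with ovalbumin, which then received B1-8hi BTKC481S and B1-8hi BTKWT B cells and a boost with NP-ovalbumin in the footpads. B1-8hi cells carry a knock-in heavy chain that gives high affinity for the hapten NP, and BTKC481S encodes a form of the kinase BTK that is resistant to the inhibitor acalabrutinib. Of the 8 hosts, 5 (A7, A8, A10, A11 and A12, 381 cells) were given 3 oral doses of acalabrutinib at 0, 6 and 12 hours, 3 (V5, V7 and V9, 256 cells) were given vehicle, and LZ cells of the popliteal lymph nodes were sorted at 14 hours, 7 days after the boost. The labels define 16 samples, a genotype within a host. Cells are named by host, plate and well, with no genotype, so both genotypes of a host were pooled and the host is the replicate. The cells came from 2 independent experiments that the labels do not assign to hosts, so a difference between experiments cannot be told apart from one between hosts.

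GC B cells shuttle between a dark zone, where they divide and mutate their antigen receptors, and the LZ, where they capture antigen and compete for help from T follicular helper (Tfh) cells. *Fas* encodes a death receptor that GC B cells carry in abundance, and its engagement by Fas ligand starts the caspase cascade. BAFF-R (*Tnfrsf13c*) transmits the survival signal of the cytokine BAFF in mature B cells, TACI (*Tnfrsf13b*) binds BAFF and APRIL, and BCMA (*Tnfrsf17*) is best known from plasma cells. HVEM (*Tnfrsf14*) is a TNF receptor superfamily member that engages BTLA, an inhibitory receptor of the immunoglobulin superfamily, and PD-L1 (*Cd274*) and PD-L2 (*Pdcd1lg2*) are the ligands of PD-1, which Tfh cells carry at high levels.

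The cells held 132412 to 1825420 counts each (median 789357), and host totals lay between 26778559 and 114987280 counts. Of 6 B cell markers 5 had a count in at least 10% of cells, and *Ms4a1* was at 0 in every cell. A share at or near 0 in these counts therefore does not show that a gene is unexpressed. All 6 GC markers and all 3 LZ markers passed the same share. The T cell genes *Cd3d*, *Cd3e* and *Cd3g* had a count in 1.1%, 0.157% and 0.785% of cells, with 413, 1 and 354 counts in all. Their shares were taken as a reference for genes that B cells should lack. Whether their counts are stray was not tested. Of the 8 T cell markers *Lck*, a kinase gene, was the exception, with a count in 51.6% of cells and 270 CPM. It was not used for that reference. Of 8 macrophage or dendritic cell markers 2 had a count in at least 10% of cells, *Adgre1* (38.1%, 8.39 CPM) and *Flt3* (29.8%, 63.4 CPM). The T cell shares are thus no upper limit for the markers of other cell types. In a related experiment of the study, GC B cells were gated as positive for CD95, the protein of *Fas*, and LZ cells by CD86 and CXCR4. The sorting gate of the cells analysed here was not examined, so the presence of *Fas* in them may in part be set by the sort.

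The members fell into 3 ranges. *Tnfrsf13c* was the most widely detected, with a count in 523 cells (82.1% of all cells, exact binomial 95% interval 78.9 to 85%). *Fas*, *Btla*, *Tnfrsf14* and *Tnfrsf13b* followed at 62.0%, 60.9%, 53.4% and 46.6%. *Pdcd1lg2* was detected in 65 cells (10.2%), *Cd274* in 16 (2.51%) and *Tnfrsf17* in 7 (1.1%). The T cell genes other than *Lck* had shares from 0.157% (*Cd3e*) to 2.67% (*Trac*), with 2.04% for *Cd4*, 0.628% for *Cd8a* and 0.314% for *Il21*. The share of *Tnfrsf17* was that of *Cd3d* (1.1%), and the highest of its cells held 257 counts. The share of *Cd274* was within this range but above every one of these genes except *Trac*. Whether the counts of *Tnfrsf17* and *Cd274* are background was not tested. With the B cell marker *Ms4a1* at 0, their low shares do not show that the genes are unexpressed either. *Tnfrsf13b*, *Cd274* and *Pdcd1lg2* each overlap an antisense gene, whose reads cannot be told apart from theirs because the kit does not mark strand. *Fas* overlaps a small RNA gene, *Gm27818*, on its own strand. With every cell thinned to 459128 counts, leaving out 64 shallower cells, the 8 shares were 82.0%, 61.8%, 60.6%, 51.5%, 47.5%, 9.77%, 2.27% and 1.05% in the same order. At 10 counts or more *Tnfrsf14* fell to 38.3% of all cells, below *Tnfrsf13b* at 42.1%, while the other members kept their places. The intervals and limits on shares cover counting error only and leave out the spread between hosts, which for *Tnfrsf13c* ran from 73.3 to 90.4%.

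On the scale of CPM (counts scaled to the same library total) per kilobase of exon, which allows genes to be compared, the mean level over 8 hosts was 279 ± 30.0 (SD) for *Tnfrsf13c*, 136 ± 33.7 for *Fas*, 105 ± 27.8 for *Btla*, 82.4 ± 13.7 for *Tnfrsf13b*, 24.7 ± 5.78 for *Tnfrsf14* and 12.6 ± 6.84 for *Pdcd1lg2*. *Tnfrsf13c* ranged from 230 to 325 and did not overlap the next gene in that order, *Fas* (93.8 to 186). *Fas*, *Btla* (44.4 to 130) and *Tnfrsf13b* (60.6 to 106) overlapped their neighbours, so their order is not set beyond the spread of the hosts. *Tnfrsf14* (17.1 to 31.2) lay below all 3, and its range overlapped that of *Pdcd1lg2* (0.914 to 20.0). *Tnfrsf17* (0.412 ± 1.05) and *Cd274* (0.377 ± 0.523) were near 0. Lengths came from an annotation of GRCm38, not the GRCm39 build of the counts. Reads in introns were counted too, and per kilobase of the whole gene the order changed to *Tnfrsf13c* (218), *Btla* (10.7), *Tnfrsf13b* (10.3), *Fas* (7.54) and *Tnfrsf14* (5.36), with *Pdcd1lg2* next at 0.410. *Tnfrsf13c* was first on both scales, *Fas*, *Btla* and *Tnfrsf13b* changed places behind it, and *Tnfrsf14* and then *Pdcd1lg2* followed them on both.

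**Figure D1:**
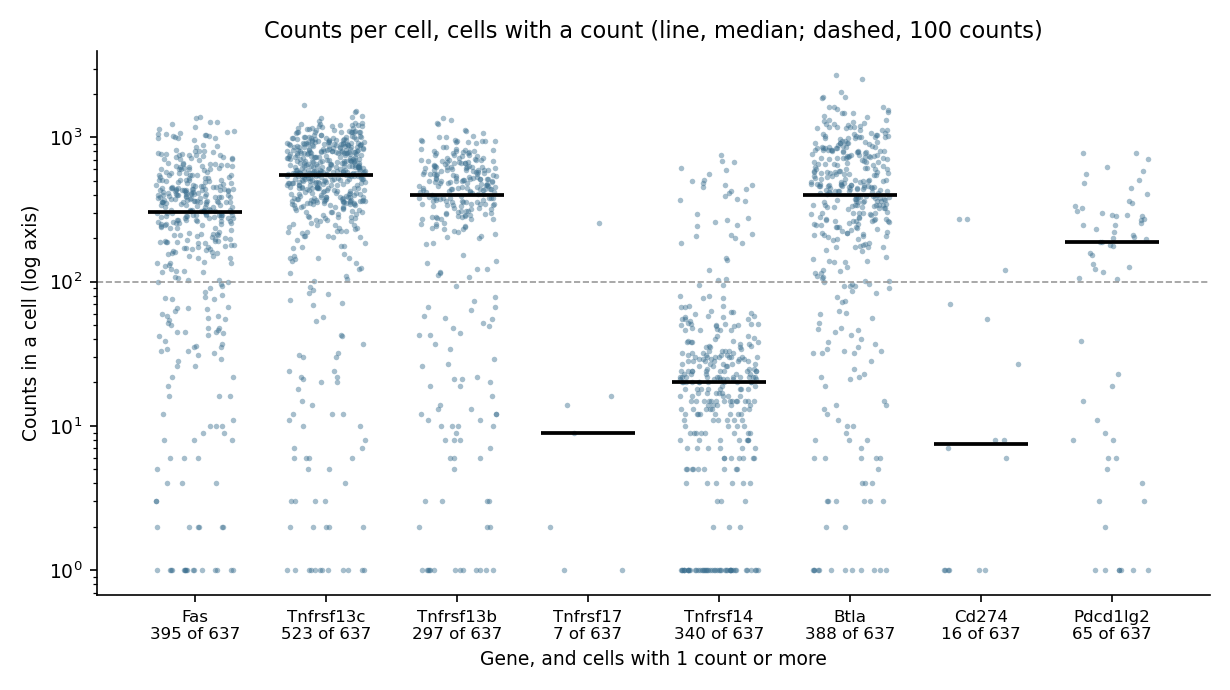
Counts of each gene in the cells that have at least 1, with 1 point per cell, a log axis, the median as a black line and a dashed line at 100 counts; the labels give the number of cells with a count. The medians of *Tnfrsf13c*, *Tnfrsf13b*, *Btla* and *Fas* lie between 303 and 546 counts, and that of *Tnfrsf14* at 20 counts with 36 cells above the dashed line.

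*Tnfrsf14* differed from the other receptors in how its counts were spread over cells. *Fas*, *Tnfrsf13c*, *Tnfrsf13b* and *Btla* had at least 100 counts in 76.2%, 88.0%, 77.1% and 79.1% of the cells in which they were detected, with medians of 303, 546, 400 and 399 counts. *Tnfrsf14* reached 100 counts in 36 of its 340 cells (10.6%), and these 36 cells held 66.6% of all its counts. Another 208 cells had 10 to 99 counts and 96 had 1 to 9. The 36 cells came from every host, with 1 to 10 each, and made up 7.69% of the cells of V9, 8.77% of those of A11 and 2.22% of those of A7. *Pdcd1lg2* had the opposite form, since 43 of its 65 cells (66.2%) had at least 100 counts and only 5 had 10 to 99. *Cd274* reached 100 counts in 3 cells and *Tnfrsf17* in 1. That 1 cell, of host V9, held 85.7% of the counts of *Tnfrsf17*.

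**Figure D2:**
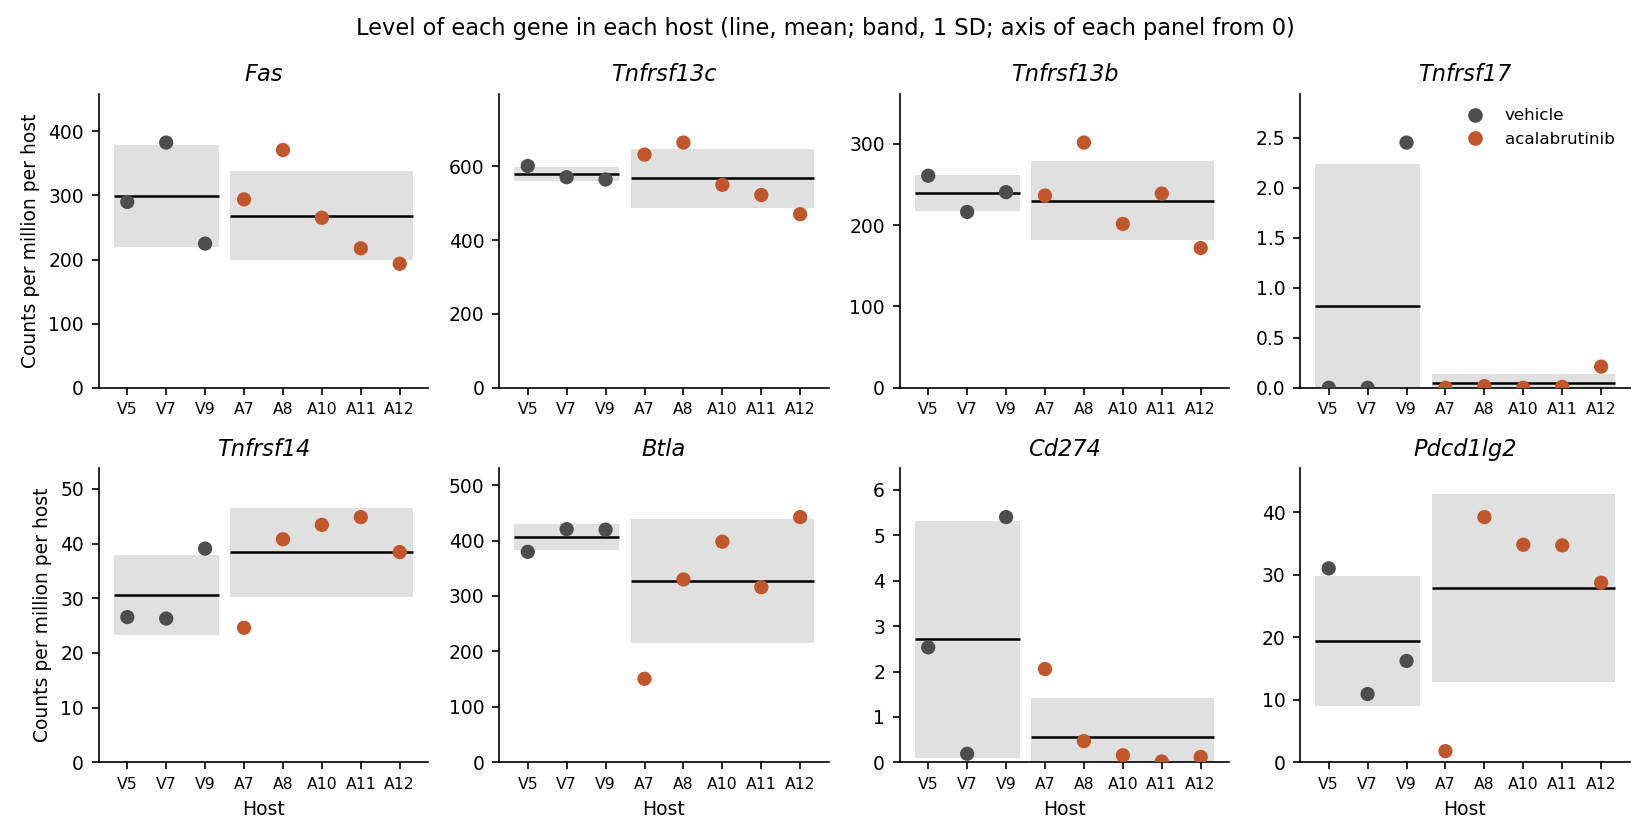
Level of each gene in each host in CPM from the summed counts of its cells, with vehicle hosts in grey and acalabrutinib hosts in orange; lines are group means and bands 1 SD, and each panel has its own axis from 0. The hosts of the groups overlap in all 8 panels, and A7 is the lowest host for *Btla*, *Tnfrsf14* and *Pdcd1lg2*.

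The first comparison asked whether BTK inhibition for 14 hours was accompanied by another level of these genes. No member passed the test. In edgeR's quasi-likelihood test across 18016 genes, 0 genes passed an adjusted p of 0.05 (percent called 0), 616 had an unadjusted p under 0.05, and DESeq2 called 437 genes, none of them a member. Tested on simulated data for this comparison, edgeR recovered 21.5% of 200 genes changed 4-fold among 17261. Many changes of that size could thus be missed over all genes. The 200 genes were drawn at random whatever their level, so the percentage is not that of any member. The SE or interval of each fold change below gives the precision for that member. The comparison covers both genotypes together, of which BTKC481S cells carry the kinase that is resistant to the drug.

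*Fas* had 290, 383 and 225 CPM in V5, V7 and V9, and 294, 371, 265, 218 and 193 CPM in A7, A8, A10, A11 and A12. V7 and A8 were the 2 highest hosts, 1 of each group, and the groups overlapped over most of their range. The log2 fold change of acalabrutinib against vehicle was −0.17 (SE 0.28, adjusted p = 1.0 by edgeR). The share of cells with a *Fas* count was also highest in V7, at 78.2%, against 57.7 to 66.3% in the other 7 hosts.

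Of the receptors for BAFF and APRIL, *Tnfrsf13c* was the steadiest member, with a coefficient of variation over hosts of 10.7%. It had 601, 571 and 565 CPM in the vehicle hosts and 632, 665, 550, 523 and 471 CPM in A7, A8, A10, A11 and A12. The acalabrutinib hosts spanned the vehicle hosts on both sides, and the fold change was −0.04 with a 95% interval of −0.44 to 0.37 on the log2 scale. *Tnfrsf13b* had 261, 216 and 241 CPM with vehicle and 236, 302, 202, 239 and 172 CPM with acalabrutinib. Again A8 was the highest host and A12 the lowest, and the log2 fold change was −0.07 (interval −0.55 to 0.42). The share of cells with at least 10 counts of *Tnfrsf13b* was 41.8 to 48.5% in the vehicle hosts and 33.3 to 41.2% in the acalabrutinib hosts. These ranges did not overlap (exact two-sided permutation p = 0.0179, the smallest that 56 splits allow), nor did they in thinned cells (48.1 to 55.1% against 42.9 to 46.0%). With 1 count or more they overlapped (47.9 to 53.1% against 35.6 to 48.2%). Of 18016 genes 1.09% separated with lower shares under acalabrutinib at 10 counts, and 1.22% did in thinned cells. No adjusted p was computed for these 2 shares. *Tnfrsf17* was at 0 counts in 4 hosts. In V5 that is 0 of 71 cells, which allows a share of up to 4.23% (a limit of 3 cells), and the value of V9, 2.45 CPM, rests on the single cell named above.

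**Figure D3:**
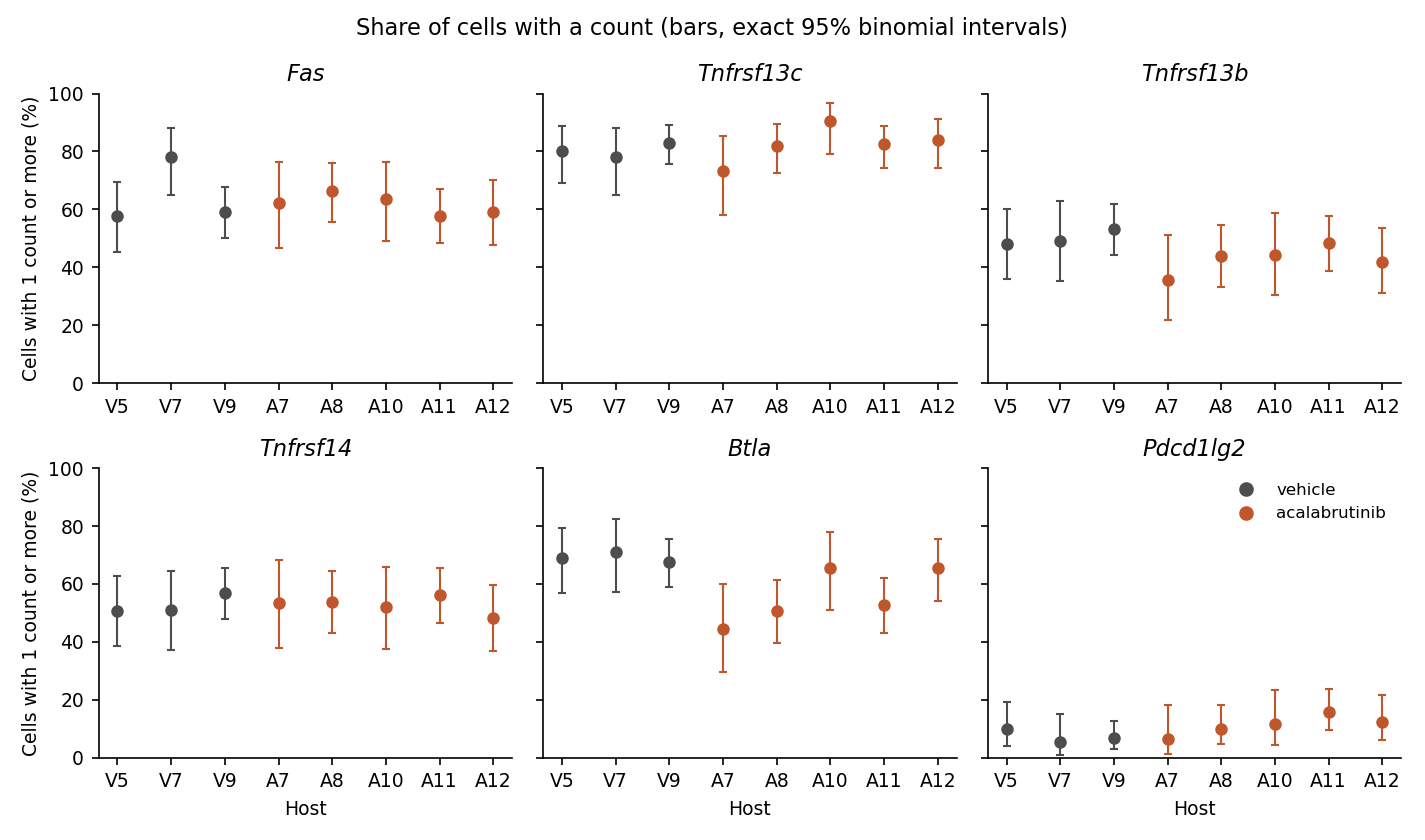
Percent of the cells of each host with at least 1 count, for the 6 genes detected in at least 10% of cells, with exact 95% binomial intervals; vehicle hosts are grey and acalabrutinib hosts orange. *Btla* lies at 67.7 to 70.9% in the vehicle hosts and at 44.4 to 65.4% in the acalabrutinib hosts.

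*Btla* was the member with the largest difference in the share of cells. It was detected in 69.0%, 70.9% and 67.7% of cells in V5, V7 and V9, and in 44.4%, 50.6%, 65.4%, 52.6% and 65.4% in A7, A8, A10, A11 and A12. Every acalabrutinib host lay below every vehicle host, a mean difference of −13.5 percentage points (exact two-sided permutation p = 0.0357, adjusted p = 1.0 over 18016 genes). Among those genes 0.994% showed the same separation in that direction, and *Btla* was the only one of the 7 members tested to do so. For the other shares this background was 1.09% (10 counts, where *Tnfrsf13b* alone separated) and 1.22% (thinned cells, where *Tnfrsf13b* and *Btla* did). At 10 counts the groups overlapped for *Btla* (60.8 to 65.5% against 37.8 to 61.7%). Its level overlapped as well, with 380, 421 and 420 CPM against 151, 330, 398, 316 and 442 CPM, and a log2 fold change of −0.35 (SE 0.26, adjusted p = 1.0 by edgeR). A7, the host with the fewest cells (45) and the lowest total count, was the lowest, and without it the fold change was −0.18. In cells outside S and G2/M phase, called low-cycling below, the shares of the groups overlapped. They were 54.8 to 68% with vehicle and 37.5 to 65% with acalabrutinib. In S and G2/M cells together they did not overlap, at 70.2 to 73.9% against 52.4 to 68%. How many of all genes separate there was not computed, so no result was read from it. On the levels of those cycling cells alone, a fit added after seeing the data, edgeR called 0 of 15646 genes for treatment. A7 and A8 had the largest shares of low-cycling cells, 53.3% and 58.4%. The part of cycling state in the difference was not tested.

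*Tnfrsf14*, the partner of BTLA, had 26.6, 26.3 and 39.1 CPM in the vehicle hosts and 24.6, 40.8, 43.4, 44.9 and 38.5 CPM in A7, A8, A10, A11 and A12. Except for A7, the acalabrutinib hosts were near or above the highest vehicle host, V9. The log2 fold change was 0.31 (SE 0.35, adjusted p = 1.0 by edgeR). Its share of cells overlapped between the groups, at 50.7 to 56.9% against 48.1 to 56.1%, with a mean difference of −0.150 percentage points.

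The PD-1 ligand genes lie side by side on chromosome 19 with no protein-coding gene between them. *Pdcd1lg2* had 31.0, 10.9 and 16.2 CPM with vehicle and 1.79, 39.3, 34.8, 34.7 and 28.8 CPM with acalabrutinib. A7 had 48 counts in all, and the other 4 acalabrutinib hosts lay between 28.8 and 39.3 CPM, all above V7 and V9. The log2 fold change was 0.47 (SE 0.80, adjusted p = 1.0 by edgeR), and leaving out a host moved it between 0.18 (without V7) and 1.06 (without V5), with 0.77 without A7. *Cd274* had 2.53, 0.189 and 5.40 CPM with vehicle and 2.05, 0.466, 0.156, 0.0190 and 0.119 CPM with acalabrutinib. The log2 fold change of −2.16 (SE 1.64) rests on 16 cells, of which 3 held 78.0% of the counts.

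The second comparison set the cells in S or G2/M phase (380 cells, 219 and 161) against the others, called low-cycling here (257 cells), within each host. The phases came from Seurat's lists of phase genes, which hold no member, and 66 cells lay within 0.1 of the limit on the higher of the phase scores. Low-cycling cells made up 32.3 to 45.5% of the cells of the vehicle hosts and 34.2 to 58.4% of those of the acalabrutinib hosts. They were shallower, with a median of 687239 counts against 875636. edgeR, with the host as a block, called 474 of 12664 genes (3.74%), 315 higher and 159 lower in cycling cells, and called 0 of the 6 members it could test. The median log2 fold change of all genes was 0.11. Tested on simulated data for this comparison, it recovered 20.5% of 200 genes changed 4-fold among 12484, again drawn at random whatever their level.

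**Figure D4:**
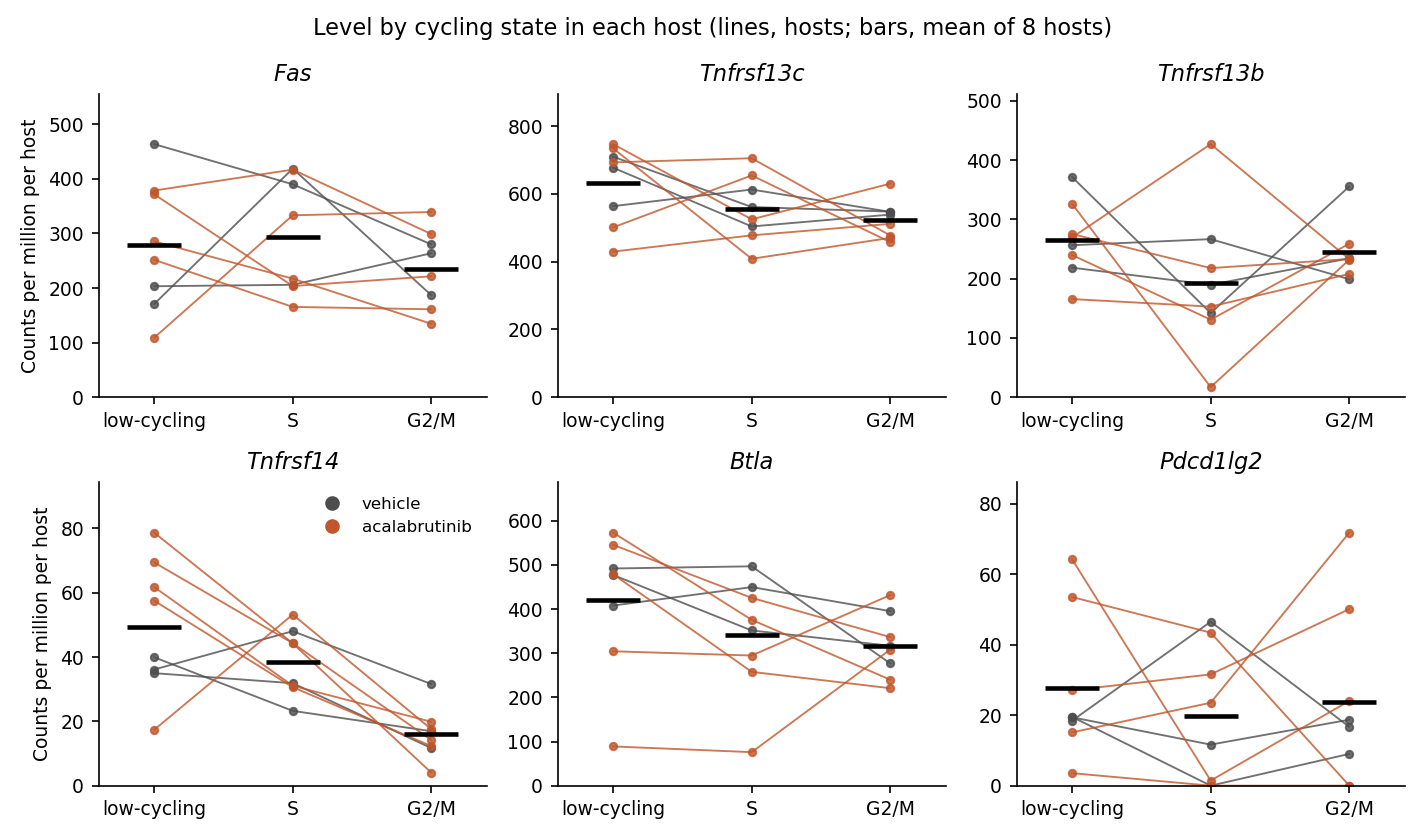
Level in CPM of the 6 genes detected in at least 10% of cells, in low-cycling, S and G2/M cells of each host; each line is a host, grey for vehicle and orange for acalabrutinib, and black bars are means of 8 hosts. *Tnfrsf14* falls from a mean of 49.5 CPM in low-cycling to 16.0 CPM in G2/M cells, and the lines of *Fas* and *Pdcd1lg2* cross.

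*Tnfrsf14* had the steepest profile over the phases. Its level in low-cycling, S and G2/M cells averaged 49.5 ± 20.6, 38.3 ± 10.5 and 16.0 ± 7.94 CPM (SD, n = 8 hosts). G2/M cells were below low-cycling cells in 7 of 8 hosts, from 4.02 against 78.7 CPM in A11 to 31.6 against 36.1 CPM in V9, and A7 was level at 17.6 against 17.4 CPM. Cells with at least 100 counts made up 6.61% of low-cycling cells, 7.31% of S cells and 1.86% of G2/M cells (3 of 161). Cycling against low-cycling cells gave a log2 fold change of −0.78 (SE 0.43, adjusted p = 0.488 by edgeR; adjusted p = 0.0561 by DESeq2), and G2/M cells alone −1.65 (SE 0.66, adjusted p = 0.312 by edgeR). The fall therefore did not pass the test. Pooled over hosts, the share of cells with a *Tnfrsf14* count was 54.9%, 55.3% and 48.4% in the 3 states.

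The BAFF-R gene *Tnfrsf13c* had 632, 556 and 523 CPM in low-cycling, S and G2/M cells, and G2/M was lower than low-cycling in 7 of 8 hosts. With S and G2/M cells summed, cycling cells were lower in 5 hosts and higher in V7, A10 and A12, the last with the lowest level among low-cycling cells (430 against 492 CPM in cycling cells). Its log2 fold change in cycling cells was −0.26 (SE 0.11, unadjusted p = 0.0428, adjusted p = 0.330 by edgeR). *Tnfrsf13b* had 265, 193 and 244 CPM, with a fold change of −0.34 (SE 0.17, adjusted p = 0.430 by edgeR). In S cells of A7, 9 in number, it dropped to 16.9 CPM.

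*Btla* had 421, 341 and 316 CPM and *Fas* 279, 294 and 236 CPM in the 3 states. Both were higher in cycling cells in 3 of 8 hosts. For *Fas* the hosts moved far in either direction, from 109 to 336 CPM in A10 and 171 to 339 CPM in V5, but from 372 to 214 CPM in A7. The fold changes were −0.26 (SE 0.23) and −0.03 (SE 0.27), with adjusted p-values of 0.734 and 0.985 by edgeR. Leaving out a host moved the fold change of *Btla* between −0.44 (without A7, adjusted p = 0.219 by edgeR) and −0.14 (without A11). *Pdcd1lg2* had 27.6, 19.8 and 23.8 CPM, from 0 to 71.8 CPM in G2/M cells of single hosts, and a fold change of −0.95 (SE 0.99, adjusted p = 0.788 by edgeR).

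For *Btla*, *Fas*, *Tnfrsf13c* and *Tnfrsf13b* the shares of cells, as means of 8 hosts, were higher in cycling cells. That of *Pdcd1lg2* was 8.91% against 10.4% and that of *Tnfrsf14* 53.4% against 53.1%. Both turned in thinned cells, with mean differences of 1.74 percentage points for *Pdcd1lg2* and −2.04 for *Tnfrsf14*. Pooled over hosts, *Tnfrsf14* was detected in 52.4% of cycling and 54.9% of low-cycling cells. *Btla* was detected more often in cycling cells in 8 of 8 hosts (64.0% against 56.3% on average, exact two-sided sign-flip p = 0.00781, the smallest 8 hosts allow, adjusted p = 0.0502 over 12664 genes), but 15.3% of all genes tested were detected more often in cycling cells in every host. In thinned cells the difference was 5.16 percentage points (exact p = 0.0781). *Fas* was detected in 66.2% against 58.0% and *Tnfrsf13c* in 84.2% against 78.5% (exact p = 0.0469 and 0.0547, adjusted p = 0.145 and 0.160). Thinned, their differences were 8.46 and 2.54 percentage points (exact two-sided sign-flip p = 0.148 and 0.336). The median gene rose by 3.59 points (2.7 thinned), and since the levels of these genes in CPM were not higher, no order was read from these shares.

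A test of the interaction asked whether the difference with acalabrutinib depended on the cycling state, and no member passed it. edgeR called 0 of 18116 genes (percent called 0), with 547 at an unadjusted p under 0.05, and DESeq2 called 498. The interaction was 0.10 (SE 0.48) for *Btla*, −0.35 (SE 0.59) for *Fas*, 0.03 (SE 0.25) for *Tnfrsf13c*, 0.03 (SE 0.37) for *Tnfrsf13b* and −0.36 (SE 0.90) for *Tnfrsf14*, all with an adjusted p of 1.0 by edgeR. *Tnfrsf14* was 69.4, 78.7, 61.8 and 57.5 CPM in low-cycling cells of A10, A11, A12 and A8, all above the 35 to 39.9 CPM of the vehicle hosts, and 17.4 CPM in A7. How many of all genes show such a pattern was not computed. In low-cycling cells alone, a fit added after seeing the data, edgeR called 0 of 13570 genes for treatment.

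Fixed lists of the pathways in which the members act were set beside them. No listed gene passed in the treatment comparison. In the cycling comparison the list headed HVEM and BTLA partners had 3 of 4 tested genes called, all lower in cycling cells. Of all genes 3.74% were called. The median log2 fold change of the list was −0.62, against 0.11 for all genes. *Ltb*, listed beside *Lta*, encodes lymphotoxin beta, which is not itself a ligand of HVEM or BTLA. The gene had 309 to 563 CPM in low-cycling cells of the 8 hosts (median 382) and 174 to 386 CPM in cycling cells (median 246). It was lower in cycling cells in 8 of 8 hosts, by a log2 fold change of −0.75 (SE 0.10, adjusted p = 0.00253 by edgeR). *Ptpn6* encodes SHP-1, a phosphatase that BTLA recruits. It had 925 to 1329 CPM (median 1187) against 750 to 963 CPM (median 836), also lower in 8 of 8 hosts, with a fold change of −0.48 (SE 0.07, adjusted p = 0.00346 by edgeR). *Lta*, whose product is a soluble ligand of HVEM, had 130 to 602 CPM (median 193) against 90.5 to 225 CPM (median 133). It was lower in 7 of 8 hosts, with a fold change of −0.76 (SE 0.17, adjusted p = 0.0391 by edgeR), and this call was lost when any of A7, A8, A11, A12, V7 or V9 was left out (adjusted p up to 0.114). It was also lost in thinned cells (0.0849), without the filter on low counts (0.176), without the host block (0.161), with cells split at the median cycle score (0.0774) and with S cells alone as cycling (0.391). With S cells alone the call of *Ptpn6* was lost too (adjusted p = 0.0515 by edgeR).

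The other lists had no gene called in either comparison. The Fas death pathway had 17 of 19 genes tested and a median log2 fold change in cycling cells of 0.29. *Fasl* was not among them, with counts in 0.314% of cells. The list of BAFF and APRIL ligands and signaling had 13 of 16 tested with a median of −0.36, the PD-1 ligand partners and regulators 10 of 12 with −0.23, and the other TNF receptors 9 of 22 with −0.34. Sums over marker lists differed in direction between the cycling states. The 6 B cell markers summed to 5141 to 7313 CPM in low-cycling and 4103 to 5235 CPM in cycling cells, and the 3 LZ markers to 2187 to 3148 CPM and 1167 to 2371 CPM, lower in cycling cells in 8 of 8 hosts for both lists. The memory or naive markers summed to 97.3 to 276 CPM and 18.5 to 125 CPM. The GC markers averaged 2327 CPM in low-cycling and 2281 CPM in cycling cells (lower in 5 of 8 hosts), the dark zone markers 773 and 819 CPM (lower in 2), and the plasma cell markers 1238 and 1329 CPM (lower in 1). The part of these shifts in the values of *Ltb*, *Lta* and *Ptpn6* was not tested.

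**Figure D5:**
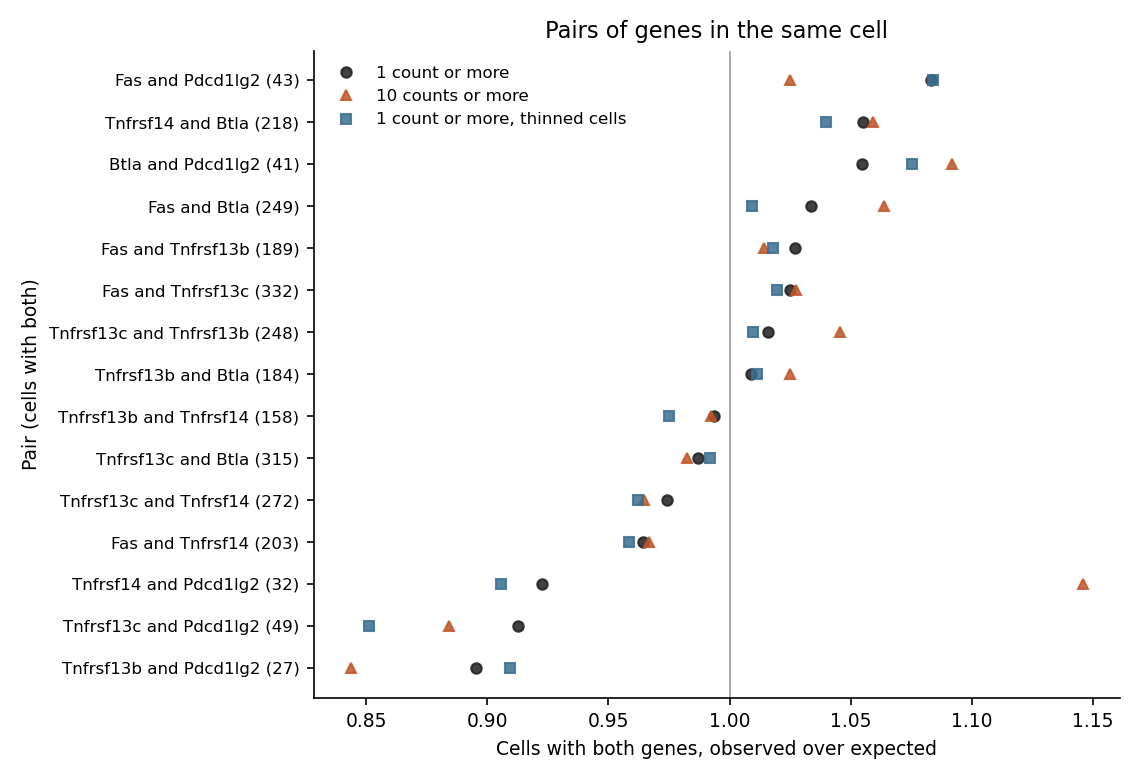
Number of cells with both genes of a pair over the number expected from the shares of each host, for the 15 pairs of the 6 genes detected in at least 10% of cells, at 1 count (circles), at 10 counts (triangles) and in thinned cells (squares). At 1 count all ratios lie between 0.896 and 1.08.

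Within single cells, the 15 pairs of the 6 genes detected in at least 10% of cells occurred together in numbers close to those expected. Pairs with *Cd274* or *Tnfrsf17* shared 0 to 13 cells, and their ratios of observed to expected cells ran from 0 to 1.55. Expected numbers were computed host by host from the shares of both genes. *Tnfrsf13c* and *Tnfrsf13b* were found together in 248 cells against 244 expected, a ratio of 1.02. *Tnfrsf13c* alone of the BAFF and APRIL receptors was detected in 270 cells (42.4%), *Tnfrsf13b* alone in 48 (7.54%) and none in 65 (10.2%). *Tnfrsf14* and *Btla*, whose products can bind each other on 1 cell or between cells, shared 218 cells against 207 expected, with 122 cells holding only the former, 170 only the latter and 127 neither. Their within-host correlation of log2(CPM + 1) was 0.02, from −0.12 to 0.24 in single hosts.

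Among the 15 pairs of the 6 genes detected in at least 10% of cells, the highest ratio was that of *Fas* and *Pdcd1lg2* (43 cells against 39.7, 1.08) and the lowest that of *Tnfrsf13b* and *Pdcd1lg2* (27 against 30.1, 0.896). *Cd274* and *Pdcd1lg2* occurred together in 2 cells against 1.60 expected, with 14 cells holding only *Cd274* and 63 only *Pdcd1lg2*. Over the same 15 pairs the within-host correlation ran from −0.09 to 0.10, and the highest, *Fas* with *Btla*, was positive in 7 of 8 hosts. The commonest number of members with counts in a cell was 3 of 8 (221 cells, 34.7%), with 170 cells for 4, 134 for 2, 11 for 6 and 7 for none. Cells with a count of a member were somewhat deeper than those without, with medians of 806703 against 754080 counts for *Fas* and 800095 against 748054 for *Tnfrsf13c*.

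Among 10616 genes detected in at least 10% of cells, the within-host correlation over all cells picked out the genes whose pattern was most like each member. These correlations are weak, share the depth of the cell, and are given as a description. For *Fas* the first was *Cd40* (r = 0.20, from −0.02 to 0.32 in single hosts), the receptor for the CD40 ligand of T cells, followed by *Rel* (0.17), an NF-κB subunit, and *Nek7* (0.17). *Cd40* also ranked first by Spearman's rho (0.21). *Fas* had a count in 71.2% of the 250 cells with a *Cd40* count and in 56.1% of the 387 without, and in 72.0% and 55.2% of thinned cells.

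For *Tnfrsf13c* the first were *Ywhaz* (0.24) and *Rac2* (0.20), a small GTPase of blood cells. For *Tnfrsf13b* they were *Arhgap45* (0.17), *Itgb1bp1* (0.17) and *Cox8a* (0.15). For *Tnfrsf14* they were *Havcr1* (0.17), which encodes TIM-1, *Pkib* (0.16) and *Arl8b* (0.16), and the lowest r of all 10616 genes was that of *Mki67* (−0.14), a proliferation marker. *Mki67* was negative in 6 of 8 hosts, with a range of −0.23 to 0.23. For *Btla* they were *Parm1* (0.17), *Cul4b* (0.16) and *Smim11* (0.15), and for *Pdcd1lg2* *Gbp8* (0.18), *Vcl* (0.17) and *Capn11* (0.16). The 99th percentile of r lay between 0.10 and 0.12 for the 6 members.

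Of 16 further genes of GC selection and differentiation, the ones at either end for each member were these. *Fas* was highest with *Cd40* and lowest with *Cxcr4* (−0.08), the dark zone chemokine receptor. *Tnfrsf14* was highest with *Icam1* (0.13), an adhesion molecule of stable T cell contact, and was detected in 59.7% of cells with an *Icam1* count against 49.6% of those without (58.3% and 47.5% thinned). It was lowest with *Mki67*. *Tnfrsf13c* and *Tnfrsf13b* were both highest with *Bcl6* (0.14 and 0.08), the GC master regulator, and lowest with *Sdc1* (−0.06) and *Cd40* (−0.04). In single hosts their r with *Bcl6* ran from −0.03 to 0.42 and from −0.07 to 0.30. *Btla* was highest with *Bach2* (0.12, positive in 8 of 8 hosts), a repressor of plasma cell fate, and lowest with *Myc* (−0.09). *Pdcd1lg2* was highest with *Bach2* (0.08, from −0.10 to 0.21 in single hosts) and lowest with *Xbp1* (−0.09). It had a count in 7.56% of cells with *Xbp1* against 13.6% of those without. Its r with *Bach2* (0.084) lay below its 99th percentile of r (0.096), as did that of *Tnfrsf13b* with *Bcl6* (0.077 against 0.107).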

How the data were processed

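SMART-seq2 libraries of sorted LZ GC B cells were aligned by the authors with STARsolo 2.7.10a to GRCm39, and the deposited values are counts per gene and cell. Reads over exons or introns were counted, and reads at identical positions were collapsed, since the method has no molecular identifiers. The filter of the study (over 5% mitochondrial counts or under 200 genes) removed 0 cells, and doublets were not called because cells were sorted into wells. Counts were summed per host, or per host and cycling state, and tested with edgeR 4.0.16 (quasi-likelihood, Benjamini-Hochberg adjustment, threshold 0.05, host as a block between cycling states). DESeq2 1.42.0 was the alternative. Low-count genes were removed by edgeR's filter. Phases came from Seurat 5.3.0 in R 4.3.3. Shares of cells were compared between treatments by exact two-sided permutation of hosts. Between cycling states they were compared by exact two-sided sign flips of the host differences, both with NumPy 2.4.6. Binomial intervals came from SciPy 1.17.1. Correlations used log2(CPM + 1). The hosts of both treatments differ and were not paired, while both cycling states came from the same host. The genotypes were not analysed separately here. The members, gene lists and tests were chosen with earlier results of these data known. The 3 genes named for likeness to each member are those with the highest within-host Pearson r, of which 1 is not reported here. Pathway genes were named where called, and the 16 selection genes by the highest and lowest r per member.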

Additional observations from a re-analysis of the deposited data

Results flagged for a closer look

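In groups of 4 to 10 hosts, the gap from the highest or lowest host to its neighbour was compared with Dixon's 95% limit. Of 32 groups examined 6 exceeded it. For normally distributed values chance alone flags about 1 group in 20. The values of *Tnfrsf17* and *Cd274*, at or near 0 in most hosts, are not of that kind, so the rate does not apply to them. *Tnfrsf13b* in cycling cells was far higher in A8 (338 CPM) than in the other 7 hosts. *Pdcd1lg2* in the acalabrutinib hosts was far lower in A7 (1.79 CPM). *Cd274* in the same hosts was far higher in A7 (2.05 CPM), from 55 counts in 1 cell. *Tnfrsf17* stood apart 3 times, in A12 among the acalabrutinib hosts (0.211 CPM), in low-cycling cells of A12 (0.624 CPM) and in cycling cells of V9 (3.30 CPM), the last 2 among all 8 hosts, each resting on 4 cells or fewer.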

How the results depend on the processing

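No member was called under any alternative in any comparison. The lowest adjusted p was 0.608 for treatment, 0.0561 for cycling state and 0.972 for the interaction. With DESeq2 in place of edgeR, 437 genes were called for treatment, 2244 for cycling state and 498 for the interaction. Without the filter on low counts the cycling comparison called 288 genes, and leaving out a host gave 318 to 375. Without the replicate block that pairs the states of a host it called 448 genes. With only S cells as cycling, an alternative added after seeing the data like the fits in G2/M cells alone and within each state, it called 296. The cause of these differences was not tested. The direction of *Fas* in cycling cells turned to 0.012 without the filter and 0.071 with S cells only, and spanned −0.24 to 0.11 when a host was left out. Leaving out a host also turned the treatment fold change of *Fas* (−0.40 to 0.053), *Tnfrsf13c* (−0.13 to 0.032) and *Tnfrsf13b* (−0.20 to 0.046). The interaction turned for *Fas* (−0.75 to 0.060), *Tnfrsf13c* (−0.080 to 0.18, and −0.041 in thinned cells), *Tnfrsf13b* (−0.17 to 0.28), *Btla* (−0.20 to 0.33), *Cd274* (−3.76 to 2.34) and *Pdcd1lg2* (−1.69 to 0.055). The median log2 fold change of all genes between cycling states was 0.11, against 0.34 without the filter and −0.09 without the replicate block. Shares that did not overlap between treatments were those of *Btla* at 1 count, *Tnfrsf13b* at 10 counts, and both in thinned cells. These were lower with acalabrutinib, as were 0.994%, 1.09% and 1.22% of 18016 genes in the same order. In the other direction 145, 104 and 191 of those genes separated, none of them a member. The level of *Tnfrsf13c* over the next gene was 2.06 per kilobase of exon and 20.3 per kilobase of gene. Pairs beyond 1.1-fold of expectation numbered 1, 3 at 10 counts and 2 in thinned cells. Of the 18 most alike genes, 3 were also among the first 3 by Spearman's rho.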
